A study of Mus musculus with 12 samples.

Results

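Transcripts of 51 genes for the presynaptic vesicle and its release machinery were measured in primary cultures of newborn *Myt1l* mutant and control mice. The genes were taken by name: 3 synapsins, 3 vesicle proteins with a tetraspan fold, 3 SV2 proteins, 2 vesicular glutamate transporters, 11 synaptotagmins and Doc2 calcium sensors, 9 SNAREs and SNARE regulators, 4 genes of the Rab3 system, 11 active zone and priming genes and 5 genes of vesicle endocytosis. All 51 names were found once each among the 55397 genes of the count table, and all 51 were among the 18264 genes left by the low-count filter. RNA-sequencing was performed on cultures from 3 *Myt1l* (+/−) animals (replicates 505, 506 and 508) and 3 (+/+) animals (replicates 510, 511 and 513), with 2 libraries per animal that were summed. The (+/−) pups carried a germline 7 bp frameshift deletion in *Myt1l* exon 6, made by CRISPR/Cas9 in zygotes, and the (+/+) pups did not. All pups were taken at P0, and all cultures of both genotypes received 2 µM Ara-C, which kills dividing cells, and were cultured to day in vitro 11. The labels give cortex, C57BL/6J and male for every sample, whereas the methods of the study name C57BL/6N. Its methods name hippocampus or cortex as sources of primary cultures, and its legends for this RNA-sequencing name primary mouse neurons without a region.

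Neurons store transmitter in synaptic vesicles that are tethered, docked and primed at the active zone, a protein sheet under the presynaptic membrane built from RIM, Munc13, ELKS, liprin, Bassoon and Piccolo proteins. A vesicle fuses when the SNARE proteins of the vesicle and the plasma membrane zip together, a step that synaptotagmins couple to calcium and that complexins clamp and promote. The SNAREs are then pulled apart by NSF, and the vesicle membrane is retrieved by dynamin, endophilin and synaptojanin and refilled by transporters. MYT1L is a zinc finger repressor of neurons that binds an AAAGTT core motif, and the comparison asks how the transcripts of this machinery stood when 1 allele was lost.

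Libraries held 20181477 to 26594444 counts and animals 40642699 to 52833161 counts, and the 51 genes took 0.659% to 1.16% of the counts of a (+/−) and 1.13% to 1.41% of those of a (+/+) animal. *Myt1l* itself was at 89.0, 146 and 165 CPM in (+/−) and at 119, 147 and 109 CPM in (+/+) cultures (CPM, counts scaled to library size, here after TMM scaling), with a log2 fold change at 0.091 (standard error, SE, 0.22; edgeR adjusted p = 0.809). The study reports that the mutant mRNA is not degraded in mutant mice, so this level does not check the genotype labels. The (+/+) replicate 511 held 18805 *Xist* counts against 5 to 10 in the other 5 animals, which goes against its label as male. Of the 6 animals, (+/−) replicate 505 stood apart: over 18 pan-neuronal markers its mean log2 level was −1.01, −0.31 and −0.21 for replicates 505, 506 and 508 against −0.0043, 0.13 and −0.12 for replicates 510, 511 and 513, each relative to the (+/+) mean. The fold changes of the 51 genes are therefore given with and without replicate 505, and some also without other animals. The neuronal tubulin gene *Tubb3*, at 689.7 ± 71.8 CPM (SD, n = 3) in (+/+) cultures, was among the markers that showed neurons in all 6 cultures.

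The levels in (+/+) cultures covered a wide range when expressed per kilobase of exon, the scale on which genes of different length can be compared. *Vamp2*, the vesicle SNARE of fast release, had the highest level at 201 ± 23.2 CPM per kb (SD, n = 3). It was followed by the vesicular glutamate transporter *Slc17a7* at 175 ± 26.2 CPM per kb and by the complexins *Cplx1* and *Cplx2* at 171 ± 13.1 and 161 ± 14.8 CPM per kb, and neighbours among these 4 did not differ beyond their SDs. Next came *Syp*, encoding synaptophysin, at 142 ± 13.5 CPM per kb and *Rab3a*, the main vesicle Rab GTPase, at 128 ± 14.2 CPM per kb. At the other end stood *Syn3* at 0.685 ± 0.107 CPM per kb, *Unc13c* at 0.750 ± 0.183 CPM per kb, *Syt2* at 0.891 ± 0.158 CPM per kb and *Unc13b* at 1.18 ± 0.0321 CPM per kb. Among the synapsins *Syn1* at 96.8 ± 15.6 and *Syn2* at 68.1 ± 12.8 CPM per kb lay far above *Syn3*, and among the Munc13 genes *Unc13a* at 22.4 ± 2.69 CPM per kb lay far above *Unc13b* and *Unc13c*. Among the synaptotagmins the highest level was that of *Syt11* at 103 ± 1.22 CPM per kb, above *Syt1*, the calcium sensor of fast release, at 58.9 ± 5.35 CPM per kb.

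**Figure D1:**
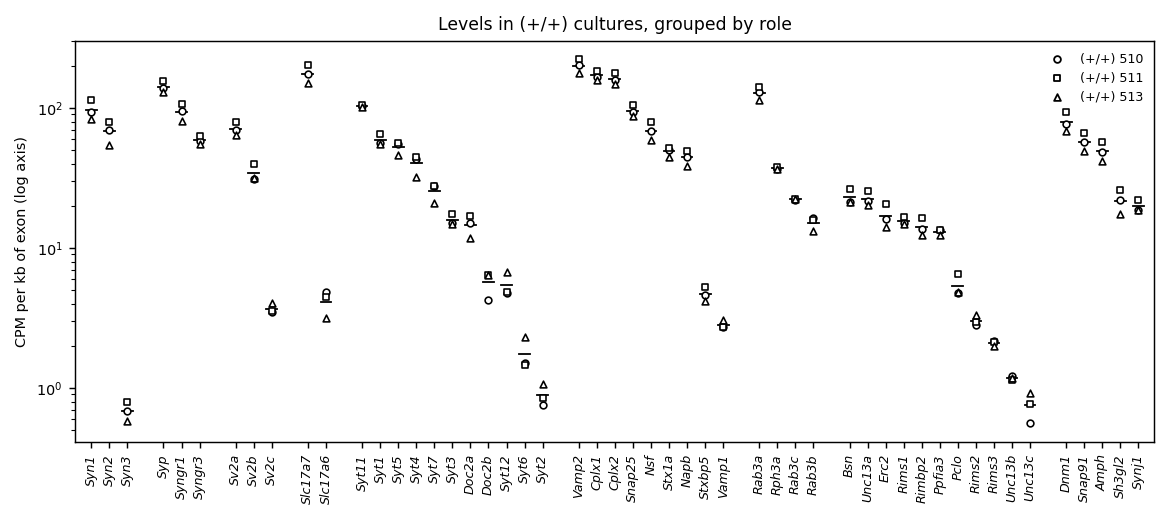
Level of each of the 51 genes in the 3 (+/+) animals, in CPM per kb of exon on a log axis, with genes grouped by role and ordered by mean within a role (open symbols, animals; bars, means). Vamp2, Slc17a7, Cplx1 and Cplx2 lie between 161 and 201 CPM per kb on average, and Syn3, Unc13c and Syt2 lie below 1.

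Of the 51 genes, 47 had a negative and 4 a positive log2 fold change in (+/−) against (+/+) cultures after TMM scaling, where 49.6% of all tested genes were negative. The median over the 51 genes was −0.43, beside 0.0031 over all tested genes, and 36 of the 51 lay between −0.6 and −0.3. The range ran from −0.81 for *Syn3* to 0.36 for *Syt12*. None of the 51 was lower and none was higher at an adjusted p under 0.1 in edgeR's quasi-likelihood test, as for all genes (0% called in either direction, smallest adjusted p = 0.166). At an unadjusted p under 0.05, 11 of the 51 were lower (9.11% of all tested genes) and 1, *Syt12*, was higher (13.2% of all). In 22 of the 51 every (+/−) animal lay below every (+/+) animal (13.5% of all tested genes), and in 0 every (+/−) animal lay above (15.5% of all). For a single gene with groups that do not overlap, the exact two-sided permutation test gave p = 0.1, the smallest that 3 animals against 3 allow.

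The same animals stood lowest and highest in most of these genes, while the order of replicates 508 and 513 varied from gene to gene. Replicate 505 was the lowest animal in 46 of the 51 genes (31.2% of all tested genes), and replicate 511 was the highest in 39 (22% of all). Averaged over the 51 genes, log2 levels relative to the (+/+) mean were −0.89, −0.26 and −0.11 in replicates 505, 506 and 508 and −0.030, 0.13 and −0.10 in replicates 510, 511 and 513, so replicate 508 lay next to (+/+) replicate 513 in this average. Replicate 508 was above replicate 506 in 47 of the 51 genes and above (+/+) replicate 513 in 24, and 513 was the lowest (+/+) animal in 39. Without replicate 505 the median was −0.21, with 46 of 51 genes still negative, and 21 of the 51 had both remaining (+/−) animals below every (+/+) animal (16.9% of all genes). Leaving out replicate 505 moved the log2 fold change of 44 of the 51 genes by over 1.5 times, and leaving out replicate 508 did so for 12. For any other animal the number was 2 to 6. Without replicate 511 the median was −0.36. The number of genes without overlap between the genotypes was 40 without replicate 508 (21.2% of all genes) and 38 without replicate 513 (26.8% of all genes).

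**Figure D2:**
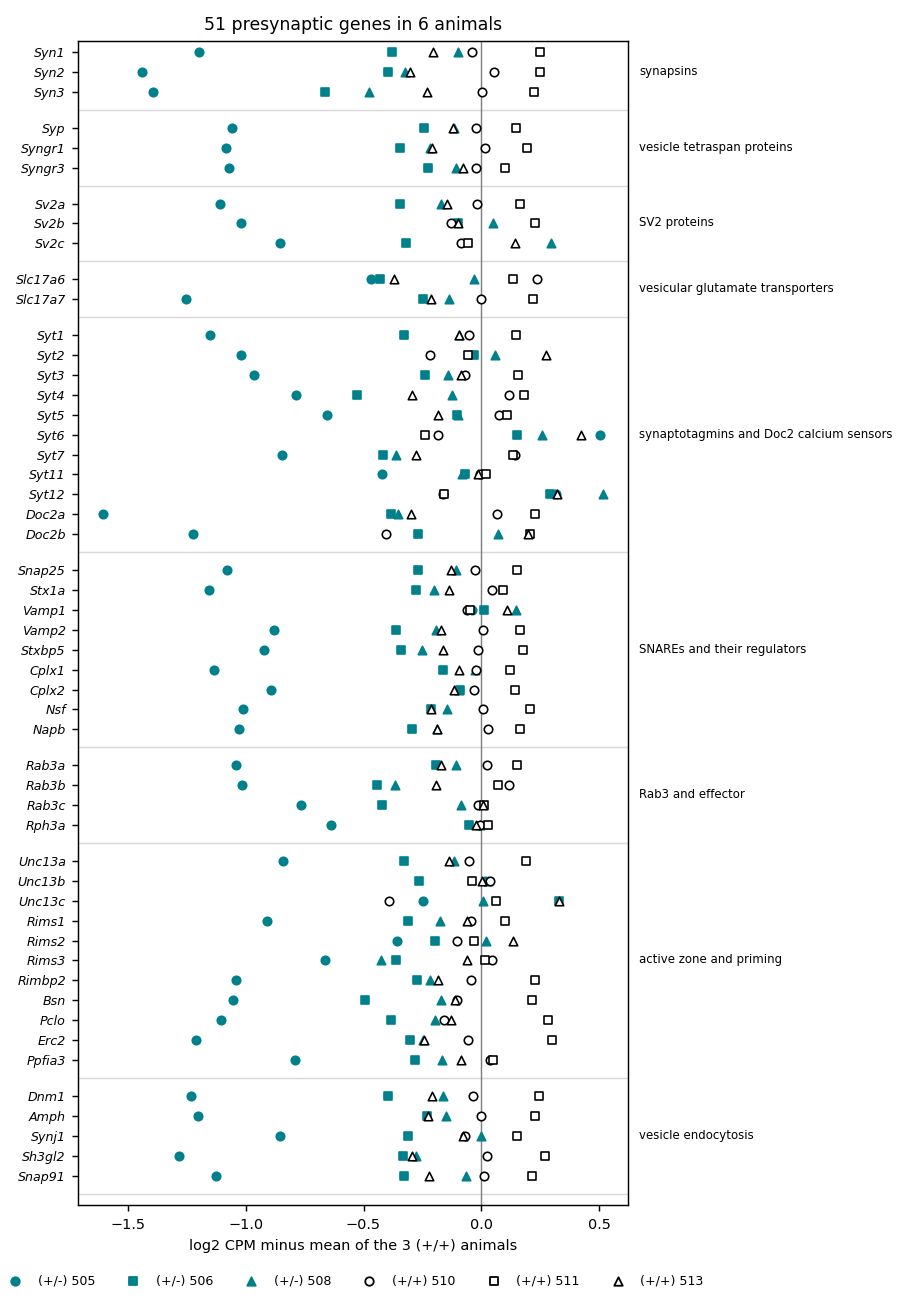
Log2 CPM of each of the 51 genes in each animal, relative to the mean of the 3 (+/+) animals, with genes grouped by role (filled teal symbols, (+/−); open symbols, (+/+)). Replicate 505 is the lowest animal in 46 genes. Averaged over the genes, replicate 506 lies at −0.26 and replicate 508 at −0.11, beside −0.10 to 0.13 for the (+/+) animals. Syt6, Syt12, Vamp1 and Unc13c have log2 fold changes above 0.

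The start regions of the genes were read for letters of known motifs, as a description of what the genes share beside their role. RefSeq promoters (GRCm38.p6, the build also called mm10; 250 bases before to 50 after a start) were at hand for 40 of the 51 genes, 53 promoters in all, and each motif was searched on both strands. AAAGTT, the core bound by MYT1L, was found in 1 of the 53 promoters (1.89%), that of *Sv2b*, and in 14.1% of all 32851 promoters. TTCAGCACC, the left part of the site of REST, the repressor that keeps many neuronal genes silent outside neurons, was found in 3 (5.66%; *Syn1*, *Unc13a* and *Ppfia3*) and in 0.371% of all promoters. Its right part, GGACAGC, was found in 7 promoters of 4 genes (13.2%; *Unc13a*, *Rimbp2*, *Rph3a* and *Syt6*) and in 6.56% of all. Promoter windows of *Syt6* overlap, and the same match was counted in more than 1 of them. TGACGTCA, the palindromic cyclic AMP response element, was found in 2 (3.77%; *Syn1* and *Sh3gl2*) and in 1.79% of all. The 4 promoters printed here are those with the MYT1L core or the left part of the REST site, with the matched letters in capitals. *Syn1* (chrX:20920869-20921168, minus strand) carries TTCAGCACC beginning 232 bases and TGACGTCA beginning 159 bases before the start, *Ppfia3* (chr7:45366970-45367269, minus strand) TTCAGCACC beginning 46 bases before it, *Sv2b* (chr7:75302560-75302859, minus strand) AAAGTT beginning 21 bases before it, and *Unc13a* (chr8:71671708-71672007, minus strand) both parts of the REST site on the opposite strand.
Syn1: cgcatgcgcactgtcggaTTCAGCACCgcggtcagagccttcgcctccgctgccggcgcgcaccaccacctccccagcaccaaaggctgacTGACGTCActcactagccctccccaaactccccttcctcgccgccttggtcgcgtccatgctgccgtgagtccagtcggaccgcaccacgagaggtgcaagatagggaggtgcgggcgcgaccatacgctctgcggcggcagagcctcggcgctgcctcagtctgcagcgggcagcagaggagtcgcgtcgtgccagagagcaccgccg
Ppfia3: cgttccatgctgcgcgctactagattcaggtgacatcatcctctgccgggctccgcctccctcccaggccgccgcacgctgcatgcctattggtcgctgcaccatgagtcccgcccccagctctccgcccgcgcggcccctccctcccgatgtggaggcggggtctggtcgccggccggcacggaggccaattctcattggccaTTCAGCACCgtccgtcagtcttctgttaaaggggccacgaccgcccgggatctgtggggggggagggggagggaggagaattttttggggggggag
Unc13a: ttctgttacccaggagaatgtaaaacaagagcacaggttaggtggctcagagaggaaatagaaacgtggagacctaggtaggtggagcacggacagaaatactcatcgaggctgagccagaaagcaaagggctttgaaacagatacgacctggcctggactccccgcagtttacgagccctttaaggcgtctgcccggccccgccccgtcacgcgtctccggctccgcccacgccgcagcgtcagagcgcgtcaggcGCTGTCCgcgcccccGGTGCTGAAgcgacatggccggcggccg
Sv2b: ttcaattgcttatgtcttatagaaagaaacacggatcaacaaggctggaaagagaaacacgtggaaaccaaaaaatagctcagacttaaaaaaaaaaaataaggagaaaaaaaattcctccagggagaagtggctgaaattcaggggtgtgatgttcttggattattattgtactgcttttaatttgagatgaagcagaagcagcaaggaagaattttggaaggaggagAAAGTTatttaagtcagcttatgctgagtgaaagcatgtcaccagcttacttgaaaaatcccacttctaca
These matches are letters in a window and were not tested for binding. The fold changes of the genes that hold them were −0.50 (*Syn1*), −0.39 (*Ppfia3*), −0.41 (*Unc13a*) and −0.29 (*Sv2b*) on the log2 scale, within the range of the other members.

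The synapsins, phosphoproteins that hold vesicles in a reserve cluster, had the most negative median of the 9 groups, −0.66, and 3 of 3 were negative. When counts were scaled to pan-neuronal markers instead of TMM, the median was −0.25 and 3 of 3 were negative. The values were −0.089 (SE 0.20) for *Syn1*, −0.25 (SE 0.20) for *Syn2* and −0.38 (SE 0.28) for *Syn3*. Their edgeR adjusted p in this scaling were 0.730, 0.341 and 0.314, so none was called different from the markers. *Syn3* (ENSMUSG00000059602; chr10:86055125-86498896, minus strand, mm10) was at 3.17, 5.26 and 6.00 CPM in (+/−) and at 8.36, 9.75 and 7.12 CPM in (+/+) cultures for replicates 505, 506 and 508 and 510, 511 and 513 in that order, which is the order used for all genes below. Every (+/−) animal lay below every (+/+) animal, with a log2 fold change of −0.81 (SE 0.24, edgeR adjusted p = 0.168) and −0.58 without replicate 505. The exons of *Syn3* share 14.1% of their bases with *Timp3* on the opposite strand, which had 94901 counts over all animals against 1783 for *Syn3*. Whether the counting used strand is not given in the sources read here, so part of this value may be *Timp3* reads. *Syn2* was at 174, 359 and 378 CPM in (+/−) and at 490.2, 562 and 384 CPM in (+/+) cultures, again without overlap, although replicate 508 and replicate 513 were nearly level, and its log2 fold change was −0.66 (SE 0.29, edgeR adjusted p = 0.227) and −0.38 without replicate 505. *Syn1* was at 138, 244 and 296 CPM in (+/−) and at 308, 376 and 275 CPM in (+/+) cultures, where replicate 508 exceeded replicate 513, and its log2 fold change was −0.50 (SE 0.26, edgeR adjusted p = 0.277) and −0.24 without replicate 505.

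The tetraspan vesicle proteins comprised *Syp* and the synaptogyrins *Syngr1* and *Syngr3*, abundant membrane proteins that mark the vesicle. Their median was −0.42 with 3 of 3 negative, and −0.0047 with 2 of 3 negative when scaled to pan-neuronal markers. *Syngr1* was at 212, 354 and 387 CPM in (+/−) and at 455, 514 and 389 CPM in (+/+) cultures, with every (+/−) animal below every (+/+) animal, and *Syngr3* at 57.8, 104 and 113 CPM in (+/−) and at 119.7, 130.3 and 115 CPM in (+/+) cultures, also without overlap. The log2 fold changes were −0.51 for *Syngr1* (SE 0.23, edgeR adjusted p = 0.229) and −0.41 for *Syngr3* (SE 0.23, edgeR adjusted p = 0.293). Without replicate 505 they were −0.29 and −0.17, and relative to pan-neuronal markers −0.083 and 0.0005. *Syp* had −0.42 (SE 0.23, edgeR adjusted p = 0.295) and −0.18 without replicate 505.

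The SV2 proteins are transporter-like glycoproteins of the vesicle, of which SV2A is the binding site of the antiepileptic levetiracetam. Their 3 fold changes were negative after TMM scaling with a median of −0.29, and 1 of 3 was negative relative to pan-neuronal markers, with a median of 0.11. *Sv2a* was at 151, 257 and 291 CPM in (+/−) and at 323, 366 and 295 CPM in (+/+) cultures, without overlap between the genotypes, and had a log2 fold change of −0.49 (SE 0.23, edgeR adjusted p = 0.241) and −0.26 without replicate 505. *Sv2b* was at 141, 266 and 295 CPM in (+/−) and at 261, 334 and 266 CPM in (+/+) cultures. Here 505 was low, while replicates 506 and 508 lay among the (+/+) animals, and the log2 fold change of −0.29 (SE 0.26, edgeR adjusted p = 0.482) was −0.032 without replicate 505 and 0.11 relative to pan-neuronal markers. *Sv2c* had −0.22 (SE 0.25, edgeR adjusted p = 0.588), with replicate 508 the highest of the 6 animals. This value rested on single animals, at 0.017 without replicate 505 and −0.57 without replicate 508.

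Of the vesicular glutamate transporters, VGLUT1 (*Slc17a7*) is used by most cortical and hippocampal excitatory neurons and VGLUT2 (*Slc17a6*) by subcortical and immature ones. *Slc17a7* was at 394, 790.1 and 854 CPM in (+/−) and at 936, 1091 and 809 CPM in (+/+) cultures, a log2 fold change of −0.48 (SE 0.28, edgeR adjusted p = 0.313) that was −0.20 without replicate 505. *Slc17a6* was at 15.9, 16.3 and 21.5 CPM in (+/−) and at 26.0, 24.1 and 17.0 CPM in (+/+) cultures, a log2 fold change of −0.32 (SE 0.19, edgeR adjusted p = 0.311) and −0.24 without replicate 505. Both genes overlapped between genotypes through replicates 508 and 513. Relative to pan-neuronal markers they were at −0.074 and 0.17, so that the sign of *Slc17a6* depended on the scaling.

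Of the 11 synaptotagmins and Doc2 genes, 9 were negative and 2 positive, with a median of −0.41 and, relative to pan-neuronal markers, 0.017 with 5 negative. Among them, *Syt7* (ENSMUSG00000024743; chr19:10389090-10453180, plus strand, mm10), the slow, high-affinity calcium sensor of asynchronous release and facilitation, had the smallest p. It was at 105, 141 and 147 CPM in (+/−) and at 208, 207 and 156 CPM in (+/+) cultures, and its 3 (+/−) values lay below the 3 (+/+) values. The log2 fold change was −0.54 (SE 0.17, edgeR adjusted p = 0.169), −0.40 without replicate 505 and −0.076 relative to pan-neuronal markers. *Syt1*, the sensor of synchronous release, was at 220.1, 389.9 and 459 CPM in (+/−) and at 472, 542 and 459 CPM in (+/+) cultures, with replicates 508 and 513 nearly level, and its log2 fold change was −0.46 (SE 0.25, edgeR adjusted p = 0.283) and −0.21 without replicate 505. *Syt4*, an activity-regulated synaptotagmin found also on dense-core vesicles, was at 89.5, 107 and 142 CPM in (+/−) and at 168, 175 and 126 CPM in (+/+) cultures, with replicate 508 above replicate 513 and a log2 fold change of −0.47 (SE 0.19, edgeR adjusted p = 0.212), −0.33 without replicate 505. *Doc2a*, a soluble high-affinity sensor linked to spontaneous and asynchronous release, had a log2 fold change of −0.69 (SE 0.31, edgeR adjusted p = 0.230) from 13.3, 31.1 and 31.7 CPM in (+/−) and at 42.4, 47.5 and 33.0 CPM in (+/+) cultures, without overlap between the genotypes. Replicate 505 was the farthest out, and without it the value was −0.39. Exons of *Ino80e* on the opposite strand cover 39.4% of the exon bases of *Doc2a*, with 8092 counts against 8932, so its counts are uncertain in the same way as those of *Syn3*.

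The 2 synaptotagmins with positive fold changes were *Syt12* and *Syt6*, neither of which belongs to the fast calcium sensors. *Syt12* (ENSMUSG00000049303; chr19:4445908-4477447, minus strand, mm10), a vesicle protein that does not bind calcium, was at 37.1, 36.5 and 42.6 CPM in (+/−) and at 26.6, 26.7 and 37.2 CPM in (+/+) cultures. The (+/+) replicate 513 stood among the (+/−) animals, while 510 and 511 were lower than all of them, and the log2 fold change was 0.36 (SE 0.15, edgeR adjusted p = 0.213). *Syt6* was at 14.2, 11.1 and 12 CPM in (+/−) and at 8.82, 8.48 and 13.4 CPM in (+/+) cultures, with replicate 513 again within the (+/−) range, and a log2 fold change of 0.28 (SE 0.20, edgeR adjusted p = 0.388). Without replicate 513 the values were 0.53 for *Syt12* (adjusted p = 0.0382 from edgeR) and 0.51 for *Syt6* (adjusted p = 0.0677 from edgeR), both then past the threshold, at which 12.3% of all genes were called higher without this animal. Without replicate 505 they were 0.39 and 0.17. Relative to pan-neuronal markers they were 0.84 (SE 0.28) and 0.81 (SE 0.37), where the median of all genes was 0.51. An antisense transcript covers 17.2% of the exon bases of *Syt12*, with 794 counts against 9108.

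The remaining 5 genes of this group had log2 fold changes from −0.41 (*Syt3*) to −0.18 (*Syt11*). *Syt11*, the most abundant per length, was at 401, 511 and 506 CPM in (+/−) and at 535, 543 and 531 CPM in (+/+) cultures, and its (+/+) animals were close together. The log2 fold change was −0.18 (SE 0.12, edgeR adjusted p = 0.372), −0.077 without replicate 505, which alone lay far from the rest. *Syt5* had a log2 fold change of −0.27 (SE 0.16, edgeR adjusted p = 0.332), *Syt3* of −0.41 (SE 0.20, edgeR adjusted p = 0.257), *Syt2* of −0.27 (SE 0.28, edgeR adjusted p = 0.548) and *Doc2b* of −0.41 (SE 0.31, edgeR adjusted p = 0.424). Without replicate 505 these were −0.11, −0.19, −0.00027 and −0.12 in the same order, all nearer to 0, and *Doc2b* was at −0.70 without replicate 508.

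The SNAREs and their regulators numbered 9, of which 8 were negative, with a median of −0.43, and −0.011 with 5 of 9 negative relative to pan-neuronal markers. The core complex for fast release is made of *Vamp2* on the vesicle and *Stx1a* and *Snap25* on the plasma membrane. *Vamp2* was at 413, 593 and 666 CPM in (+/−) and at 766, 853 and 676 CPM in (+/+) cultures, with every (+/−) below every (+/+) animal, although replicates 508 and 513 were close, and a log2 fold change of −0.46 (SE 0.19, edgeR adjusted p = 0.214) that was −0.28 without replicate 505. *Stx1a* had −0.49 (SE 0.23, edgeR adjusted p = 0.245) and *Snap25* −0.43 (SE 0.24, edgeR adjusted p = 0.289), so the core SNAREs differed from each other by less than their SEs. Without replicate 505 *Stx1a* was at −0.24 and *Snap25* at −0.19. *Vamp1*, the paralogue that serves release in brainstem, spinal cord and some interneurons, was at 27.9, 28.9 and 31.8 CPM in (+/−) and at 27.5, 27.8 and 31.0 CPM in (+/+) cultures. Its 6 values were mixed between the genotypes, with a log2 fold change of 0.040 (SE 0.094, edgeR adjusted p = 0.80) that ranged from −0.022 to 0.085 with 1 animal left out. *Stxbp5*, encoding tomosyn, which blocks SNARE assembly, was at 40.7, 61.1 and 64.9 CPM in (+/−) and at 76.6, 87.3 and 69.1 CPM in (+/+) cultures, without overlap, a log2 fold change of −0.48 (SE 0.18, edgeR adjusted p = 0.192) and −0.30 without replicate 505. The complexins *Cplx1* and *Cplx2* had −0.37 (SE 0.26, edgeR adjusted p = 0.389) and −0.32 (SE 0.22, edgeR adjusted p = 0.376), and without replicate 505 −0.10 and −0.10. The ATPase gene *Nsf* had −0.42 (SE 0.23, edgeR adjusted p = 0.295), and *Napb*, its adaptor beta-SNAP, −0.47 (SE 0.22, edgeR adjusted p = 0.241), and without replicate 505 these were −0.19 and −0.25.

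The Rab3 GTPases sit on the vesicle and bind RIM and rabphilin. All 4 genes of this system were negative with a median of −0.40, but 1 of 4 was negative relative to pan-neuronal markers, with a median of 0.034. *Rab3b* (ENSMUSG00000003411; chr4:108879063-108943324, plus strand, mm10), a minor isoform in forebrain, was at 26.1, 38.9 and 41.0 CPM in (+/−) and at 57.4, 55.6 and 46.3 CPM in (+/+) cultures, without overlap, and had a log2 fold change of −0.59 (SE 0.18, edgeR adjusted p = 0.168), −0.41 without replicate 505 and −0.14 relative to pan-neuronal markers. *Rab3c* was at 159, 201 and 254 CPM in (+/−) and at 267, 271 and 271 CPM in (+/+) cultures. Its (+/+) animals were nearly level and above the (+/−) animals, with a log2 fold change of −0.40 (SE 0.16, edgeR adjusted p = 0.214), −0.24 without replicate 505 and 0.048 relative to pan-neuronal markers. *Rab3a*, the most abundant, had −0.40 (SE 0.23, edgeR adjusted p = 0.316) and the effector rabphilin (*Rph3a*) −0.21 (SE 0.16, edgeR adjusted p = 0.438). Without replicate 505 *Rab3a* was at −0.16 and *Rph3a* at −0.030.

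Of the 11 active zone and priming genes, 10 were negative, with a median of −0.43. In 7 every (+/−) animal lay below every (+/+) animal (13.5% of all tested genes), as in 8 of the 18 pan-neuronal markers. Relative to pan-neuronal markers the median was 0.0014, with 5 of 11 negative. *Rims3* (ENSMUSG00000032890; chr4:120854816-120896579, plus strand, mm10), a short RIM protein that lacks the Rab3-binding part of *Rims1*, had the smallest unadjusted p of all 51 genes. It was at 10.6, 13.0 and 12.4 CPM in (+/−) and at 17.3, 16.9 and 16.0 CPM in (+/+) cultures, with the (+/−) values grouped well below the (+/+) values. The log2 fold change was −0.48 (SE 0.11, edgeR adjusted p = 0.166). It was −0.39 without replicate 505 and −0.55 to −0.39 with any 1 animal left out. Relative to pan-neuronal markers it was at −0.0003 with an SE of 0.26. *Ppfia3*, encoding a liprin-alpha scaffold, was at 59.8, 85.1 and 92.1 CPM in (+/−) and at 106, 107 and 97.2 CPM in (+/+) cultures, without overlap, and its log2 fold change was −0.39 (SE 0.16, edgeR adjusted p = 0.209), −0.22 without replicate 505 and 0.057 relative to pan-neuronal markers.

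The large scaffolds Bassoon (*Bsn*) and Piccolo (*Pclo*) had log2 fold changes of −0.54 (SE 0.22, edgeR adjusted p = 0.210) and −0.53 (SE 0.23, edgeR adjusted p = 0.229), and of −0.33 and −0.30 without replicate 505. *Erc2*, an ELKS protein, had −0.54 (SE 0.26, edgeR adjusted p = 0.247), *Rimbp2*, which links RIM to calcium channels, −0.48 (SE 0.22, edgeR adjusted p = 0.239) and *Rims1* −0.43 (SE 0.18, edgeR adjusted p = 0.214), which without replicate 505 were −0.29, −0.26 and −0.24. In all 5 of these genes every (+/−) animal lay below every (+/+) animal (13.5% of all tested genes). *Rims2* was nearer to 0 at −0.17 (SE 0.12, edgeR adjusted p = 0.382), −0.087 without replicate 505. The Munc13 proteins open syntaxin for priming. *Unc13a*, the main isoform, had −0.41 (SE 0.19, edgeR adjusted p = 0.242), *Unc13b* −0.068 (SE 0.10, edgeR adjusted p = 0.688), and *Unc13c*, which is known from cerebellum, 0.020 (SE 0.22, edgeR adjusted p = 0.960). Without replicate 505 they were at −0.23, −0.11 and 0.15, and *Unc13b* turned to 0.0095 without replicate 506. The ratio of *Unc13a* to *Unc13b*, in CPM per kb, was 10.5, 18.2 and 17.2 in (+/−) and 17.8, 22.3 and 17.2 in (+/+) animals, and the genotypes overlapped. *Unc13c* was at 5.44, 8.11 and 6.49 CPM in (+/−) and at 4.92, 6.74 and 8.12 CPM in (+/+) cultures, with both genotypes spread over the same range, and its sign turned with single animals (−0.16 to 0.19).

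The 5 genes of vesicle endocytosis were negative after TMM scaling with a median of −0.47, and 4 of 5 were negative relative to pan-neuronal markers, with a median of −0.058. None of the 5 was free of overlap, since replicate 508 was above replicate 513 in each. *Sh3gl2*, encoding endophilin A, was at 58.0, 112 and 116 CPM in (+/−) and at 144, 170.1 and 115 CPM in (+/+) cultures, a log2 fold change of −0.58 (SE 0.27, edgeR adjusted p = 0.237) and −0.32 without replicate 505. *Dnm1*, the neuronal dynamin that cuts the vesicle neck, was at 178, 316 and 372 CPM in (+/−) and at 406, 494 and 360.3 CPM in (+/+) cultures, a log2 fold change of −0.54 (SE 0.26, edgeR adjusted p = 0.250) and −0.29 without replicate 505. *Amph* (amphiphysin) had −0.47, *Snap91* (the clathrin adaptor AP180) −0.45 and *Synj1* (synaptojanin) −0.35, with adjusted p from edgeR of 0.303, 0.304 and 0.304, and −0.20, −0.20 and −0.15 without replicate 505.

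Pan-neuronal markers had fold changes like those of the presynaptic genes, and replicate 505 was the lowest animal in 16 of 18. The 18 markers, none of them a member, had negative log2 fold changes in 18 of 18 with a median of −0.48, and their summed level was 3573 to 6187 CPM in (+/−) and 6509.9 to 7510.3 CPM in (+/+) animals, with no marker at 0. The markers were chosen with earlier results of these data known, and all values scaled to them depend on that choice. The summed level of the 51 genes divided by that of the 18 markers was 1.78, 1.81 and 1.87 in replicates 505, 506 and 508 and 1.82, 1.90 and 1.75 in replicates 510, 511 and 513, so the genotypes overlapped in this ratio, which the abundant genes weigh most. With every gene weighted equally, the mean log2 level of the 51 genes minus that of the markers, each relative to the (+/+) mean, was 0.12, 0.053 and 0.098 in (+/−) and −0.026, −0.00062 and 0.027 in (+/+) animals. On that scale every (+/−) animal lay above every (+/+) animal, with replicate 505 the highest. This difference was not tested, and no share over comparable gene lists was computed to set beside it. With counts scaled to the markers, the median of the 51 genes was −0.0047, 27 were negative and 24 positive, and 40 lay within 0.2 of 0. In that scaling 1 of the 51 had every (+/−) animal below every (+/+) animal (0.816% of all genes). Beyond 0.2 stood 8 genes on the positive side, *Syt12*, *Syt6*, *Vamp1*, *Unc13c*, *Unc13b*, *Rims2*, *Syt11* and *Rph3a*, and 3 on the negative side, *Syn3*, *Doc2a* and *Syn2*. The smallest edgeR adjusted p among them was 0.135 (*Syt12*) in this scaling, which shifted the median of all genes to 0.51. Bulk RNA cannot tell fewer neurons from less presynaptic RNA per neuron.

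**Figure D3:**
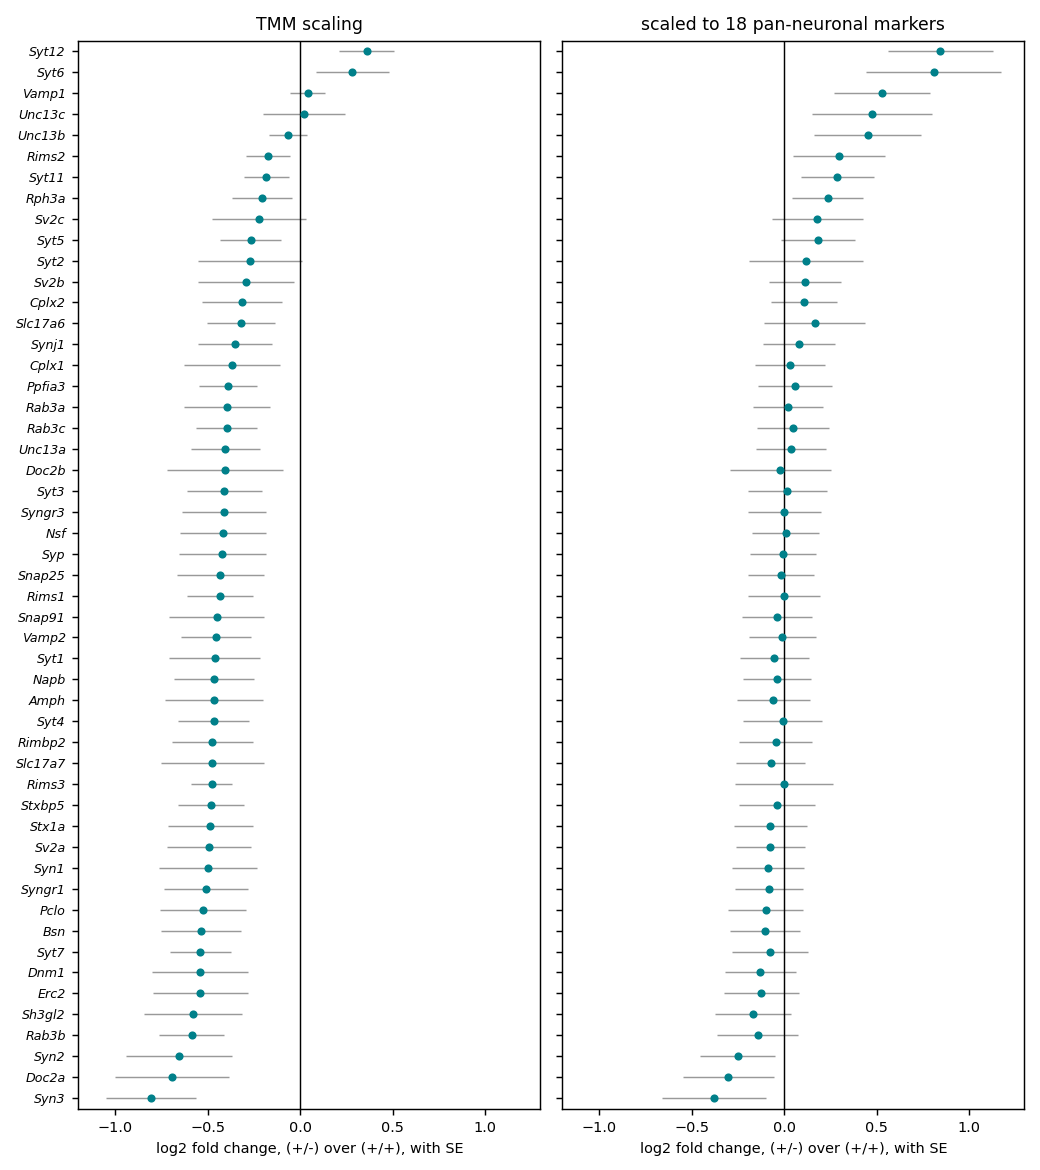
Log2 fold change of each of the 51 genes, (+/−) over (+/+), with the standard error as bars, after TMM scaling (left) and scaled to 18 pan-neuronal markers (right), in the same gene order. On the left 47 genes lie below 0 with a median of −0.43, and on the right 40 lie within 0.2 of 0.

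Markers of other cell types were given beside these values, since the cultures hold glia and other cells. The 6 glutamatergic markers had negative fold changes in 6 of 6 (median −0.51; summed level 1042 to 1746 CPM in (+/−) and 1757 to 1827 CPM in (+/+) animals), and the 7 GABAergic markers in 6 of 7 (median −0.63; 99.6 to 215 CPM and 227 to 275 CPM). The 4 genes of neuroendocrine dense-core vesicles were negative in 4 of 4 (median −0.22; 469 to 678 CPM and 588 to 669 CPM). Non-neuronal lists had positive medians. Astrocyte markers were positive in 9 of 10 (median 0.25; 11544 to 12628 CPM in (+/−) and 7575 to 12181 CPM in (+/+) animals), radial glia and progenitor markers in 7 of 8 (0.46; 5454 to 6257 CPM and 3661 to 5448 CPM) and microglia markers in 8 of 8 (0.89; 104 to 194 CPM and 78.8 to 99.1 CPM). Choroid plexus and ependyma markers were positive in 7 of 8 (1.00; 1161 to 2236 CPM and 530.3 to 734 CPM). Oligodendrocyte lineage markers were positive in 4 of 6 tested (0.49; 105 to 128 CPM and 84.6 to 108 CPM), with *Sox10* and *Mog* at 12 counts or fewer in each animal. Meningeal fibroblast markers were positive in 5 of 5 (1.06; 317 to 1141 CPM and 156 to 633 CPM) and endothelial markers in 2 of 3 tested (0.11; 9.05 to 29.9 CPM and 6.11 to 12.7 CPM), with *Cldn5* at 0 to 3 counts. The part of cell composition in the levels of the presynaptic genes was not tested beyond the scaling to neuronal markers.

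**Figure D4:**
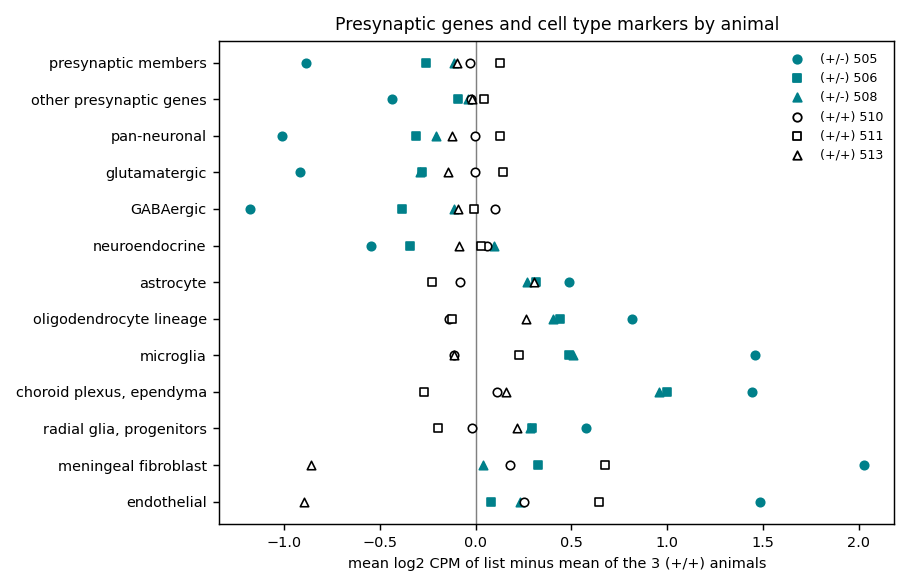
Mean log2 CPM of the 51 presynaptic genes, of other presynaptic genes with their relatives and of 11 marker lists in each animal, relative to the mean of the 3 (+/+) animals. Replicate 505 is the lowest animal in the presynaptic and neuronal lists and the highest in all lists of non-neuronal cells.

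Ratios between related genes within an animal do not depend on the scaling of libraries, and 14 pairs, chosen with the values known and therefore not tested, were computed from CPM per kb. In 10 pairs the genotypes overlapped, among them *Bsn* to *Pclo* (4.46, 3.99 and 4.38 in (+/−) and 4.46, 4.10 and 4.35 in (+/+) animals), *Cplx1* to *Cplx2* (0.896, 1.01 and 1.11 and 1.06, 1.04 and 1.07) and *Slc17a7* to *Slc17a6* (24.8, 48.4 and 39.7 and 36.1, 45.2 and 47.6). In 4 pairs they did not, and no share over all possible pairs of genes was computed to set beside this number. *Vamp2* exceeded *Vamp1* by 39.5, 54.7 and 55.9 times in (+/−) and 74.3, 81.9 and 58.3 times in (+/+) animals. *Syt1* exceeded *Syt12* by 3.94, 7.10 and 7.15 times and 11.8, 13.5 and 8.18 times. In both of these pairs all (+/−) ratios were below the (+/+) ratios and replicate 513 was the (+/+) animal nearest to them. The ratio of *Syn1* to *Syn3* was 162, 172 and 184 in (+/−) and 137, 143 and 144 in (+/+) animals, higher in each (+/−) animal, with the limit on *Syn3* counts given above. The ratio of *Sv2a* to *Sv2b* was 1.94, 1.74 and 1.78 and 2.24, 1.98 and 2.01, lower in each (+/−) animal, and the gap between the groups was smaller than the spread within either.

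**Figure D5:**
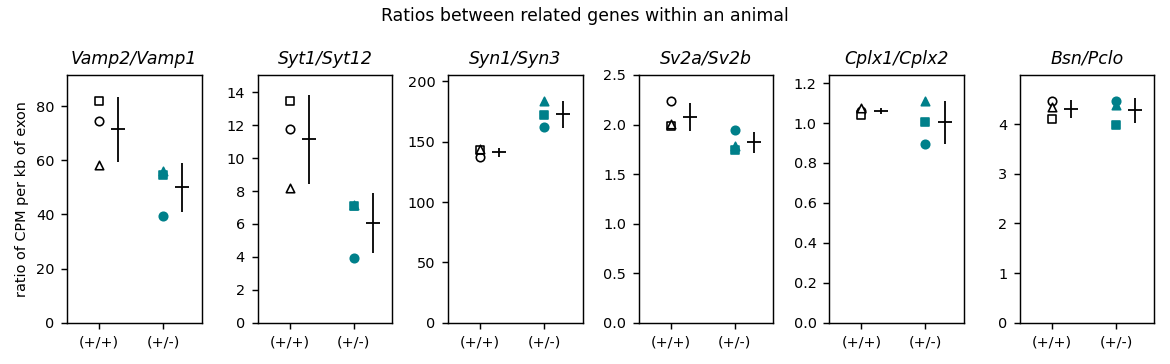
Ratio of CPM per kb of exon for 6 pairs of related genes in each animal (circles, replicates 505 and 510; squares, 506 and 511; triangles, 508 and 513; filled teal, (+/−); open, (+/+)), with mean and SD (n = 3) beside the points and each axis starting at 0. Vamp2/Vamp1, Syt1/Syt12 and Sv2a/Sv2b are lower and Syn1/Syn3 is higher in every (+/−) animal, while Cplx1/Cplx2 and Bsn/Pclo overlap. The computed pairs that are not shown overlap as well.

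Other presynaptic genes and their relatives were taken from a list of 93, of which 91 were in the count table and 88 passed the low-count filter. The list also holds paralogues used by non-neuronal cells, such as *Unc13d* and *Vamp8*, so its counts do not describe the presynaptic terminal alone. Of the 88, 64 had negative and 24 positive log2 fold changes, with a median of −0.21, and 20 of 88 were negative relative to pan-neuronal markers. None was called in either direction by edgeR, and at an unadjusted p under 0.05 the counts were 19 lower and 5 higher of the 88 (9.11% and 13.2% of all tested genes). In 25 every (+/−) animal lay below every (+/+) animal, and in 10 above (13.5% and 15.5% of all tested genes), so the counts on the positive side were smaller shares than among all genes. The smallest p on the negative side belonged to *Rims4*, a paralogue of *Rims3*, at 29.0, 38.2 and 47.6 CPM in (+/−) and at 55.5, 53.9 and 52.1 CPM in (+/+) cultures and a log2 fold change of −0.49 (SE 0.17, edgeR adjusted p = 0.179). *Vamp4*, a SNARE of the trans-Golgi network, bulk endocytosis and asynchronous release, was at 50.7, 50.6 and 50.5 CPM in (+/−) and at 60.8, 57.9 and 57.4 CPM in (+/+) cultures, with the (+/−) animals nearly level, and had −0.21 (SE 0.073, edgeR adjusted p = 0.182). *Ppfia4*, another liprin-alpha, was at 45.8, 70.7 and 76.6 CPM in (+/−) and at 92.6, 98.1 and 86.9 CPM in (+/+) cultures, with −0.52 (SE 0.18, edgeR adjusted p = 0.183). Without replicate 505 *Rims4* was at −0.33, *Vamp4* at −0.22 and *Ppfia4* at −0.33. On the positive side stood *Sncg*, encoding gamma-synuclein, at 6.5, 5.89 and 6.10 CPM in (+/−) and at 3.73, 2.87 and 3.89 CPM in (+/+) cultures, with 0.82 (SE 0.16, edgeR adjusted p = 0.166). *Unc13d*, the Munc13 protein of granule release in blood cells, was at 2.95, 2.46 and 2.85 CPM in (+/−) and at 1.27, 1.47 and 1.97 CPM in (+/+) cultures, with 0.82 (SE 0.21, edgeR adjusted p = 0.166), and *Vamp8*, an endosomal and secretory SNARE of many non-neuronal cells, at 22.5, 18.3 and 16.5 CPM in (+/−) and at 14.1, 11.1 and 15.7 CPM in (+/+) cultures, with 0.49 (SE 0.17, edgeR adjusted p = 0.181). These 3 had every (+/−) animal above every (+/+) animal, and replicate 505 was the highest animal in each.

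The call of single genes depended on the test. Given the same 6 animals, DESeq2 called 4 of the 51 lower and 0 higher (4.57% and 8.01% of all genes): *Rims3* (adjusted p = 0.0105), *Syn3* (adjusted p = 0.0353), *Rab3b* (adjusted p = 0.0453) and *Syt7* (adjusted p = 0.0491). The same 4 genes were called lower by edgeR without replicate 513 (5.95% of all genes), with adjusted p of 0.0555 for *Rims3*, 0.0836 for *Syn3*, 0.0808 for *Rab3b* and 0.0568 for *Syt7*. In each of the 4 every (+/−) animal lay below every (+/+) animal (13.5% of all tested genes). The calls came from these same animals, so this is not separate support for them. None of the 4 was called by edgeR on all 6 animals or without any of the other 5. Without a low-count filter edgeR again called these 4 lower and 0 higher (1.4% and 3.16% of all genes). Limma voom on the 12 libraries, with the animal as a random effect, called 35 lower and *Syt12* higher (11% and 11.9% of all genes), and 35 and 1 with the library number as a replicate block (9.88% and 10.9% of all genes), where 2 libraries of an animal count as separate units.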

How the data were processed

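RNA of 12 libraries from 6 animals was analysed. Raw counts for each gene and library were deposited by the authors, made from dUTP libraries mapped to mm10 with STAR, and the tool and strand setting of the counting are not given in the sources used here. Their normalised counts and their table of DESeq2 fold changes and p-values were not used. The 2 libraries of each animal were added up, and library numbers do not pair the animals (correlation of library differences between animals −0.035 to 0.028 over 8067 genes), while they differed within an animal by a median of 0.023 to 0.040 on the log2 scale over the 51 genes. In R 4.3.3, edgeR 4.0.16 was run on 3 against 3 animals, with a low-count filter by genotype, TMM scaling, the quasi-likelihood test without covariates, Benjamini-Hochberg adjustment over 18264 genes and a threshold of 0.1. The standard error was the log2 fold change divided by the root of the F statistic. Level per length used the exon length in the count table. DESeq2 1.42.0 and limma 3.58.1 were alternatives, as were other scalings, filters, single libraries, genetic sex and leaving out animals. The script was tested on simulated data. Members and lists were chosen with earlier results of these data known, and the ratio pairs after their values were seen. Values by animal are given for the 2 members of each role with the smallest p, all members with a positive fold change and the 3 other presynaptic genes with the smallest p in each direction. Values of *Syn1*, *Syt1*, *Syt11* and *Doc2a* by animal were added after they were seen. Strand overlaps were read from GENCODE M21, whose exon length matched for 48 of 51 genes, and promoters from RefSeq.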

Additional observations from a re-analysis of the deposited data

How the results depend on the processing

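The 28 genes picked by rule to be given by animal were recomputed under the alternatives. *Syn1*, *Syt1*, *Syt11* and *Doc2a*, added later, are not among them. Of the 504 values, 419 kept their sign and side of the threshold, 73 passed the threshold only under the alternative and 12 changed sign. Sign changes came with scaling to pan-neuronal markers for *Syngr3* (0.000496), *Sv2b* (0.11), *Slc17a6* (0.17), *Rab3c* (0.048), *Ppfia3* (0.057) and *Vamp4* (0.30), and otherwise touched *Vamp1* (−9.66e-05 with library 1 alone, −0.0019 without replicate 510 and −0.022 to 0.085 with any 1 animal left out) and *Unc13c* (−0.036 with library 2 alone, −0.15 without replicate 506 and −0.16 to 0.19 with any 1 animal left out). The same scaling took the median of the 51 genes to −0.0047 and the number without overlap to 1 (0.816% of all genes). The 0 calls became 4 lower without a low-count filter (1.4% of all genes lower) and 4 lower with DESeq2 (4.57% of all genes lower). With limma voom on 12 libraries and the animal as a random effect they became 35 lower and 1 higher (11% and 11.9% of all genes), and with the library number as a replicate block also 35 lower and 1 higher (9.88% and 10.9% of all genes). Those fits treat libraries as units with a correlation of 0.766 and 0.773 within an animal, and limma voom on the 6 animals, added after the data were seen, called 0 in either direction. Leaving out 1 animal gave 0 to 4 genes lower, 0 to 2 higher, 20 to 40 without overlap and a median of −0.60 to −0.21. Calls came only without replicate 513, where 5.95% of all genes were called lower and 12.3% higher. Over all genes the number with every (+/−) below every (+/+) animal also varied. It was from 2834 of 18628 without replicate 511 to 4999 of 18638 (26.8%) without replicate 513. Other scalings, the stricter filter, single libraries, the sex covariate (median −0.35) and a threshold of 0.05 left 0 calls. Precision was limited by 3 animals per genotype, of which (+/−) replicate 505 lay far from the other 2. The strand setting of the counting limits *Syn3*, *Doc2a* and *Syt12*.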
